A study of Rattus norvegicus with 6 samples.

Results

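The genes described here encode the insulin receptor (*Insr*), its substrates *Irs1* and *Irs2*, the regulatory subunit *Pik3r1* of phosphoinositide 3-kinase (Pi3k), the kinases *Akt1* and *Akt2*, their target *Gsk3b*, and the glucose transporters *Slc2a1* (Glut1) and *Slc2a4* (Glut4). They were listed by name and matched through RefSeq accessions to the rows of an expression array. Of the 9 genes, 8 could be matched to a row, each with 1 accession, among 26299 genes tested. *Irs2* was matched to no row and was not analysed here. A match could be made for 36.9% of rows, so the array may hold *Irs2* under another accession. Here and below, a gene with a row is one matched in this way. The array was hybridized with skeletal muscle RNA of 3 lower birth weight (LBW) and 3 average birth weight (ABW) pups, 1 array per pup. All pups were 1-day-old male Wistar rats without any treatment, and the soleus and gastrocnemius were taken as 1 sample. LBW pups lay between percentiles 5 and 25 of birth weight. ABW pups, titled as newborn controls, lay between percentiles 50 and 75 by the protocol and between 25 and 75 by the sample labels. The sources used here give neither the litter of a pup nor whether it had fasted, so that pups may share a dam and the insulin state at collection is unknown.

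Insulin binding switches on the tyrosine kinase of its receptor, which phosphorylates the insulin receptor substrates. These recruit Pi3k through its regulatory subunits, and the lipid that Pi3k makes brings Akt to the membrane, where it is phosphorylated. In muscle, active Akt moves Glut4 from internal vesicles to the cell surface and phosphorylates Gsk3, which otherwise inhibits glycogen synthase. Glut1 supplies basal glucose uptake and is the main transporter of fetal muscle, whereas Glut4 becomes the main one of muscle and fat after birth. Most of this control acts on phosphorylation and on the place of a protein in the cell, which an RNA array does not measure.

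*Slc2a1* was the single gene of the 8 that was called higher in LBW muscle, and none was called lower. Calls followed the threshold of the study's methods, a p under 0.05 before adjustment together with at least 1.5-fold in either direction. The p was taken here from limma, which those methods do not name. By this rule 1 of 8 genes was called, where 4.27% of all genes tested were called (2.38% of all genes higher, 1.89% lower in LBW pups). After Benjamini-Hochberg adjustment over all 26299 genes, limma passed 0 genes (0.0%), and the smallest adjusted p was 0.214. Before adjustment and without the fold criterion 3250 genes passed by limma and 2501 by the test named in the methods, which also left 0 once adjusted. The mean of LBW pups lay above that of ABW pups in all 8 genes, compared to 44.4% of all genes tested, although *Akt2* did so by 0.003 only and turned to -0.01 when each array was centred on its median. The median log2 fold change was 0.20 for the 8 genes and -0.02 for all genes. A lower signal in such bulk tissue can mean fewer cells of a type or less RNA per cell, and these cannot be told apart.

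**Figure D1:**
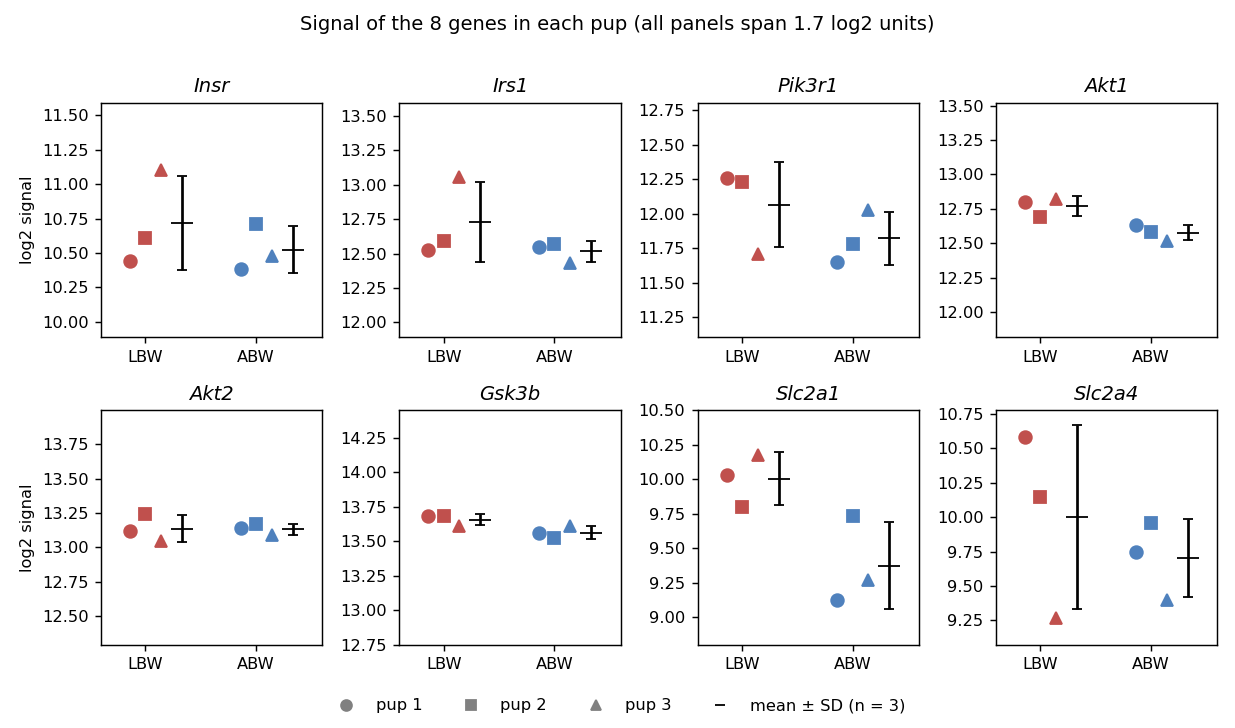
Each panel plots the log2 signal of a gene (vertical axis, 1.7 log2 units in every panel) for the 3 LBW and 3 ABW pups, with the mean ± SD (n = 3) beside them. *Slc2a1* and *Akt1* are the genes in which all LBW pups lie above all ABW pups, and LBW 3 stands away from the other LBW pups in *Insr*, *Irs1*, *Pik3r1* and *Slc2a4*.

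The muscle identity of the samples was plain, since all 10 skeletal muscle markers with a row were brighter than at least 93.0% of genes and none of them was called. The arrays had median log2 signals between 8.695 and 8.757. Their Pearson correlations across rows ran from 0.9842 to 0.9942, and LBW 2 correlated more closely with ABW 1 (0.9925) and ABW 2 (0.9916) than with LBW 1 (0.9913) or LBW 3 (0.9872). Among the bone markers, 6 of 11 were called higher in LBW pups, and among the white adipocyte markers 2 of 9 (*Lep* and *Pparg*) were called lower. In each of those 6 bone markers all LBW pups lay above all ABW pups, as in 7.27% of all genes tested. In the other 5 (*Sp7*, *Dmp1*, *Mepe*, *Dlx5* and *Col1a2*) the groups overlapped, and *Col1a2* had a lower mean in LBW pups. The mean log2 deviation of the 11 bone markers from the ABW mean was 2.72, 0.45 and 3.56 in LBW 1, 2 and 3, and -0.10, -0.05 and 0.15 in ABW 1, 2 and 3. Their summed linear signal was 65800, 36000 and 93900 in LBW pups and 35900 to 41200 in ABW pups, a sum to which the bright *Col1a2* (14.87 to 15.23 on the log2 scale, not called) adds much.

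For the insulin receptor and its first substrate, the groups overlapped and neither gene was called. *Insr* (NM_017071) had log2 signals of 10.44, 10.61 and 11.10 in LBW 1, 2 and 3, and of 10.38, 10.71 and 10.48 in ABW 1, 2 and 3. LBW 3 alone lay above the ABW pups. The log2 fold change of *Insr* was 0.19 (SE 0.19, 95% interval -0.26 to 0.65, limma adjusted p = 0.723), which leaves room for a rise of 1.57-fold or a fall to 0.832. Without LBW 3 it was -0.001. *Irs1* (NM_012969), the docking protein that the receptor phosphorylates, was at 12.53, 12.59 and 13.06 in LBW pups and at 12.55, 12.57 and 12.43 in ABW pups. Here too LBW 3 stood apart, and the other LBW pups differed from the ABW mean by 0.01 and 0.07. For *Irs1* the log2 fold change was 0.21 (SE 0.16, 95% interval -0.17 to 0.58, limma adjusted p = 0.634), and it was 0.04 without LBW 3.

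*Igf1r*, the receptor for insulin-like growth factor that is built like the insulin receptor and also signals through Irs1, was higher in every LBW pup. Its log2 signals were 12.39, 12.32 and 12.46 in LBW and 11.93, 11.83 and 11.84 in ABW pups. The levels stood 1.44-fold apart (log2 0.52, SE 0.08, limma adjusted p = 0.214), short of the 1.5 required for a call, and the exact permutation test gave 0.1, the smallest 2-sided p that 3 pups against 3 allow. *Irs3*, a rodent substrate known from fat cells, was dim and lower in every LBW pup, with 6.04, 6.23 and 6.18 against 6.44, 6.94 and 6.80. Its level of 0.671-fold (log2 -0.58, SE 0.14, limma adjusted p = 0.275) also stopped just short of a call.

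*Pik3r1* (NM_013005), the regulatory subunit that ties the catalytic subunit of Pi3k to the substrates, was at 12.26, 12.23 and 11.71 in LBW pups and at 11.65, 11.78 and 12.03 in ABW pups. LBW 1 and LBW 2 lay above all ABW pups, whereas LBW 3 lay among them. On the log2 scale *Pik3r1* differed by 0.25 (SE 0.18, 95% interval -0.18 to 0.69, limma adjusted p = 0.622). Leaving out a pup moved this value between 0.16 (without LBW 1, LBW 2 or ABW 1 it was 0.16 to 0.17) and 0.43 (without LBW 3, unadjusted p = 0.0228, limma adjusted p = 0.299), and *Pik3r1* was not called in any of these fits. *Pik3r3*, another regulatory subunit, was lower in every LBW pup, with 10.81, 10.62 and 10.59 against 11.30, 10.95 and 11.29. *Pik3r3* thus differed by -0.51 on the log2 scale (SE 0.13, limma adjusted p = 0.279), or 0.705-fold.

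*Akt1* (NM_033230), the widely expressed Akt kinase, had log2 signals of 12.80, 12.69 and 12.82 in LBW and of 12.63, 12.58 and 12.52 in ABW pups. The groups did not overlap, as in 17.4% of all genes, 7.27% in this direction, but the nearest pups, LBW 2 and ABW 1, were 0.06 apart. LBW *Akt1* differed by 0.19 log2 (SE 0.09, 95% interval -0.01 to 0.40, limma adjusted p = 0.430), or 1.14-fold, and leaving out any pup kept it between 0.16 and 0.24. *Akt2* (NM_017093), the Akt kinase on which insulin-stimulated glucose uptake mainly depends, was at 13.12, 13.24 and 13.05 in LBW and at 13.14, 13.17 and 13.09 in ABW pups. The ABW values lay inside the LBW range. For *Akt2* the log2 fold change was 0.00 (SE 0.09, limma adjusted p = 0.991), and its 95% interval of -0.21 to 0.22 corresponds to 0.865 to 1.16-fold.

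*Gsk3b* (NM_032080), the kinase that Akt switches off, was among the steadiest of the 8 genes. LBW pups were at 13.68, 13.68 and 13.61, and ABW pups at 13.56, 13.52 and 13.61, so that LBW 3 met ABW 3. The mean log2 difference was 0.09 (SE 0.08, 95% interval -0.10 to 0.28, limma adjusted p = 0.678). Its paralog *Gsk3a* differed by 0.14 (SE 0.10, limma adjusted p = 0.621). The 95% intervals of *Akt1*, *Akt2*, *Gsk3b* and, narrowly, *Irs1* lay within 1.5-fold in either direction, as did those of 66.6% of all genes tested. Those of *Insr*, *Pik3r1* and *Slc2a4* reached past 1.5-fold, so that a change of this size was not excluded in them.

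**Figure D2:**
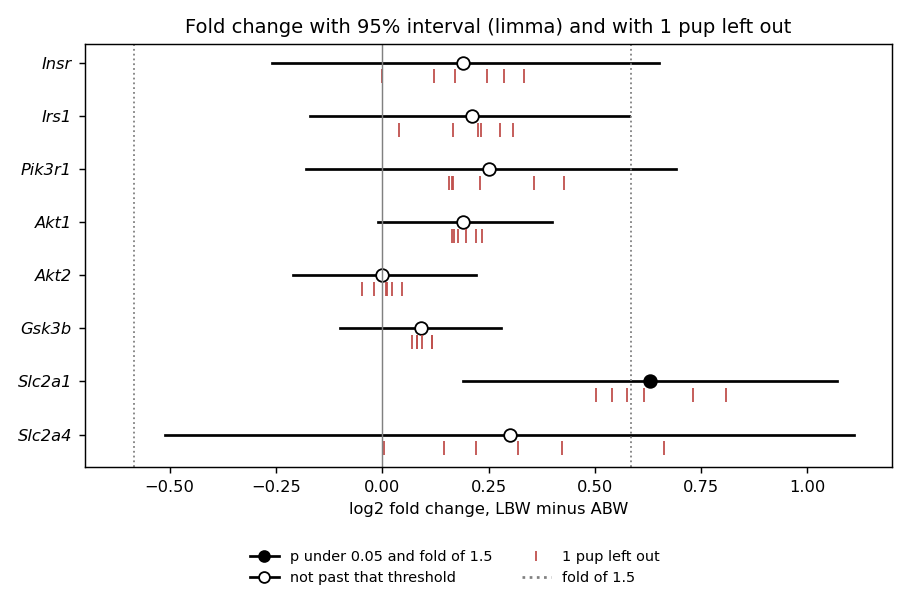
For each gene, the point is the log2 fold change of LBW over ABW pups (horizontal axis), the line its 95% interval by limma, the ticks below it the values with 1 pup left out, and the dotted lines a fold of 1.5. The interval of *Slc2a1* (0.19 to 1.07) lies above 0, that of *Slc2a4* is the widest (-0.51 to 1.11), and those of *Akt1*, *Akt2* and *Gsk3b* lie within the dotted lines.

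Glut1 RNA was higher in LBW muscle. *Slc2a1* (NM_138827) had log2 signals of 10.03, 9.80 and 10.18 in LBW 1, 2 and 3, and of 9.12, 9.73 and 9.27 in ABW 1, 2 and 3. All LBW pups lay above all ABW pups, with 0.06 between LBW 2 and ABW 2, and ABW 2 lay nearer to the LBW pups than to the other ABW pups. The means were 10.00 ± 0.19 (SD, n = 3) and 9.37 ± 0.32 (SD, n = 3). The log2 fold change was 0.63 (SE 0.18, 95% interval 0.19 to 1.07), or 1.55-fold, with an unadjusted p of 0.0128 and an adjusted p of 0.304 by limma, and the exact permutation test gave 0.1. Of all genes tested, 2.83% had a larger log2 fold change. The call depended on single pups through the fold criterion, because the log2 fold change fell to 0.54 without LBW 3, 0.50 without ABW 1 and 0.58 without ABW 3, each with an unadjusted p under 0.05 by limma. It also fell to 0.54 with array weights.

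Glut1 is also a transporter of endothelium, red cells, nerve sheath and bone cells, so the markers of these cells are given beside it. The summed linear signal of the 6 endothelial markers with a row was lower in LBW pups (19400 to 20300) than in ABW pups (21300 to 22400), with none of the 6 called. That of the 7 erythroid markers overlapped, with 107000 to 122000 in LBW and 116000 to 130000 in ABW pups. That of the 10 Schwann cell and nerve markers overlapped too, with 49300 to 51900 and 47700 to 49400. Bright genes such as *Hbb* and *Pmp22* add much to these sums. The mean log2 deviation of the erythroid markers was -0.25, 0.25 and -0.46 in LBW 1, 2 and 3 (ABW -0.23 to 0.19). For Schwann cell and nerve markers it was 0.03, 0.07 and -0.18 (ABW -0.04 to 0.04), and for endothelial markers -0.08, -0.13 and -0.11 (ABW -0.02 to 0.02). Within each list the genes were divided. Higher and lower LBW means numbered 2 and 5 for erythroid, 6 and 4 for Schwann cell and nerve, and 2 and 4 for endothelial markers. Averaged over the bone markers, the deviation pointed upwards in all LBW pups, most in LBW 3 (3.56), then LBW 1 (2.72), and least in LBW 2 (0.45). *Slc2a1* lay 0.81, 0.66 and 0.42 above the ABW mean in the same pups. The bone markers of LBW 2 were divided, however. The 6 called higher lay above their ABW means in this pup, but *Sp7*, *Dmp1*, *Mepe*, *Dlx5* and *Col1a2* lay below theirs. The part of these cells in the *Slc2a1* difference was not tested.

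Sequence upstream of the annotated gene start is shown for the 2 genes whose groups did not overlap. It was taken from RefSeq (assembly GRCr8) as the 250 bases before the gene start, 5′ to 3′ on the coding strand, and 7 of the 8 genes had an entry. *Slc2a4* had none. Searched on both strands were the GC box (GGGCGG, which reads CCGCCC on the other strand), the TATA box with the letters TATAAA, the palindromic E-box with the letters CACGTG, and the box with the letters CCAAT. Matches are printed in capitals, and no match overlapped another. These occurred in 30.5%, 12.9%, 5.59% and 34.0% of all 33469 upstream sequences of this length. The sequence of *Slc2a1* lies at chr5:138002272-138002521 on the plus strand and that of *Akt1* at chr6:137552611-137552860 on the minus strand.
Slc2a1: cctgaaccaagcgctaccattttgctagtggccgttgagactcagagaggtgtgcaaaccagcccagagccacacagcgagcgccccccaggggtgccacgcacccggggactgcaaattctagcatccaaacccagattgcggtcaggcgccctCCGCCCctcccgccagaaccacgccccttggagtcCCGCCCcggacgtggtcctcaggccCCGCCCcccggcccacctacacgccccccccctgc
Akt1: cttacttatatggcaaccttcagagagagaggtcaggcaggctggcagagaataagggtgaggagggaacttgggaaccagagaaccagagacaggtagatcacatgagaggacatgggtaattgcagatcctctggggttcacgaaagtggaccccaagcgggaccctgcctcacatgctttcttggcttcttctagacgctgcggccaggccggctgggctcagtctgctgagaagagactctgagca
The *Slc2a1* window held 3 GC boxes, which begin 95, 60 and 35 bases before the start, and 68.4% of its bases were G or C. The *Akt1* window held none of the 4 motifs and had 54.8% G or C. Among the 7 genes, *Irs1* and *Pik3r1* held GC boxes as well, 2 and 7 of them, without being called.

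Glut4 RNA varied more between LBW pups than that of any other of the 8 genes. *Slc2a4* (NM_012751) had log2 signals of 10.58, 10.15 and 9.27 in LBW 1, 2 and 3, a range of 1.31, and of 9.75, 9.96 and 9.40 in ABW pups, a range of 0.55. LBW 1 and LBW 2 lay above all ABW pups and LBW 3 below all of them. Between the groups the mean differed by 0.30 log2 (SE 0.34, 95% interval -0.51 to 1.11, limma adjusted p = 0.765), and the exact permutation test gave 0.5. Without LBW 3 it was 0.66 and past the threshold for a call (unadjusted p = 0.0229, limma adjusted p = 0.299), whereas without LBW 1 it was 0.005. Glut4 is also made by fat cells. The summed linear signal of the 9 white adipocyte markers with a row was 38300 in LBW 3, the lowest of all pups, compared to 50800 and 52700 in LBW 1 and LBW 2 and 49600 to 74800 in ABW pups. In ABW 1, 2 and 3 it was 49600, 74800 and 69100, where *Slc2a4* was lowest in ABW 3. The bright *Fabp4* adds much to this sum. The mean log2 deviation of the same markers was -0.66, -0.43 and -1.48 in LBW 1, 2 and 3, and -0.80, 0.51 and 0.29 in ABW 1, 2 and 3. The part of fat cells in the *Slc2a4* values was not tested.

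The fetal and the insulin-responsive transporter were then set against each other within each pup. The difference of *Slc2a4* minus *Slc2a1*, taken relative to its ABW mean so that the brightness of the probes drops out, was 0.22, 0.02 and -1.24 in LBW 1, 2 and 3, and 0.30, -0.11 and -0.19 in ABW 1, 2 and 3. LBW 1 and LBW 2 lay within the ABW values and LBW 3 far below. The mean change was -0.33 ± 0.48 (SE), with an exact 2-sided permutation p of 0.8, so no shift between the transporters was detected. Without LBW 3 it reversed to 0.12. In LBW 3, *Slc2a1* was 0.81 above and *Slc2a4* 0.44 below the ABW mean, which is the widest parting of the transporters in any pup.

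Such within-pup differences were also taken between 4 pairs of related proteins, chosen after their values were seen. *Pik3r1* minus *Pik3r3*, both regulatory subunits of Pi3k, was higher in all LBW pups (0.81, 0.98 and 0.48) than in ABW pups (-0.30, 0.19 and 0.10), a change of 0.76 ± 0.21 (SE). Its exact permutation p was 0.1, and 0.5 after adjustment over the 5 pairs in all. *Akt1* minus *Akt2* changed by 0.19 ± 0.10 (SE, exact p = 0.2). *Insr* minus *Igf1r* changed by -0.33 ± 0.22 (SE, exact p = 0.3). *Gsk3b* minus *Gsk3a* changed by -0.04 ± 0.08 (SE, exact p = 0.7). None of the 5 pairs could go below an exact p of 0.1.

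The LBW pups did not share a single pattern over the 8 genes. LBW 2 was above the ABW mean in 8 of 8 genes, by 0.07 (*Irs1*) to 0.45 (*Slc2a4*), LBW 1 in 6 and LBW 3 in 5. Only *Slc2a1*, *Akt1*, *Gsk3b* and *Irs1* were above the ABW mean in all 3 LBW pups, the last by 0.01 in LBW 1. LBW 3 lay highest of the LBW pups in *Insr*, *Irs1*, *Akt1* and *Slc2a1* and lowest in *Akt2*, *Gsk3b*, *Pik3r1* and *Slc2a4*. It was above the range of the ABW pups in 4 genes and below it in 2, whereas LBW 1 and LBW 2 were above it in 5 and 7 genes and below it in 0. Over all genes LBW 3 also had the smallest array weight (0.577, against 0.868 to 1.67 in the other pups).

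**Figure D3:**
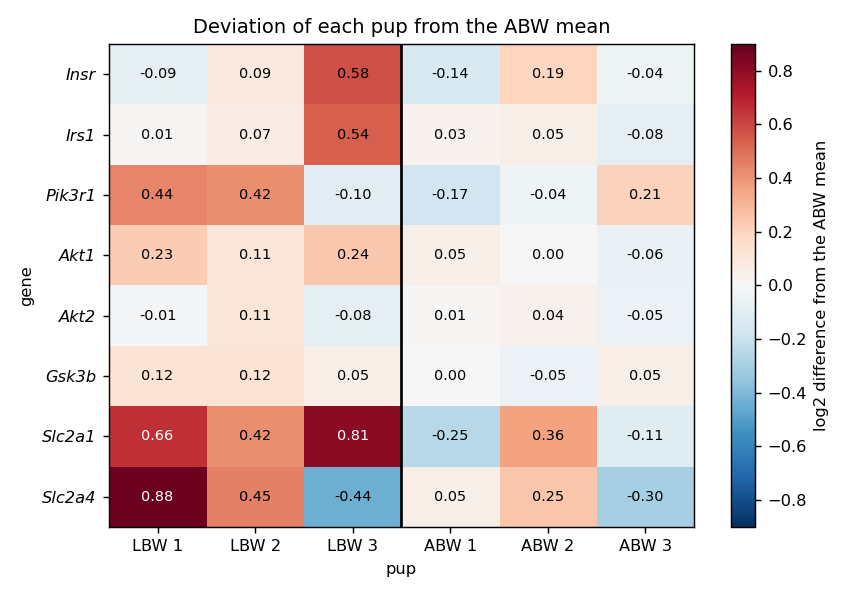
Each cell gives the log2 difference of a pup (columns) from the mean of the ABW pups for a gene (rows), with red above and blue below that mean. LBW 1 and LBW 2 are red for *Pik3r1* and *Slc2a4* (0.42 to 0.88), where LBW 3 is blue (-0.10 and -0.44), and LBW 3 is red for *Insr* and *Irs1* (0.58 and 0.54).

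Around these genes, 90 further genes of insulin signalling and sugar transport were listed by role, of which 59 could be matched to a row. None of the 59 was called in either direction, compared to 4.27% of all genes tested. Their median log2 fold change was 0.01, and without the fold criterion 3 passed as higher and 4 as lower in LBW muscle. Of all genes tested 12.4% did so, 5.63% as higher and 6.73% as lower. The groups did not overlap in 6 genes that were higher and 5 that were lower, against 7.27% and 10.1% of all genes.

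The inhibitors of insulin signalling had the most genes with a row (15) and a median log2 fold change of 0.20, with 12 higher and 3 lower in LBW means. *Socs2*, which restrains growth hormone signalling, was at 12.15, 12.11 and 11.91 in LBW and 11.77, 11.63 and 11.52 in ABW pups, 1.33-fold higher (log2 0.41, SE 0.11, limma adjusted p = 0.287). *Inppl1*, the phosphatase Ship2 that removes a phosphate from the lipid product of Pi3k, was 1.29-fold higher (log2 0.36, SE 0.12, limma adjusted p = 0.323). Both were higher in every LBW pup. *Socs3*, an inhibitor of Irs1, was at 8.66, 8.88 and 9.48 against 8.73, 8.40 and 8.0, and its 1.55-fold difference (log2 0.63, SE 0.26, limma adjusted p = 0.409) came with overlapping groups and was not called.

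In the genes of Glut4 vesicle traffic (12 with a row) the median was 0.00. *Stxbp3* (Munc18c), which binds the syntaxin at which Glut4 vesicles fuse, was lower in every LBW pup, with 11.43, 11.49 and 11.54 against 11.77, 11.67 and 12.05. In LBW pups it was at 0.787-fold (log2 -0.35, SE 0.12, limma adjusted p = 0.338). *Rab8a*, a GTPase downstream of Akt in this traffic, was at 0.797-fold (log2 -0.33, SE 0.13, limma adjusted p = 0.385), also without overlap. The other sugar transporters (7 with a row) had log2 fold changes between -0.07 and 0.34, and the groups overlapped in each of them. Among them *Slc2a5* (Glut5), a fructose transporter, differed most, with 7.99, 7.94 and 7.22 in LBW and 7.44, 7.25 and 7.44 in ABW pups. The kinases around Akt (6 with a row) had a median of -0.03, and the Akt substrates and their effectors (8 with a row) ran from -0.26 to 0.14, with no gene at an unadjusted p under 0.05 in either list.

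**Figure D4:**
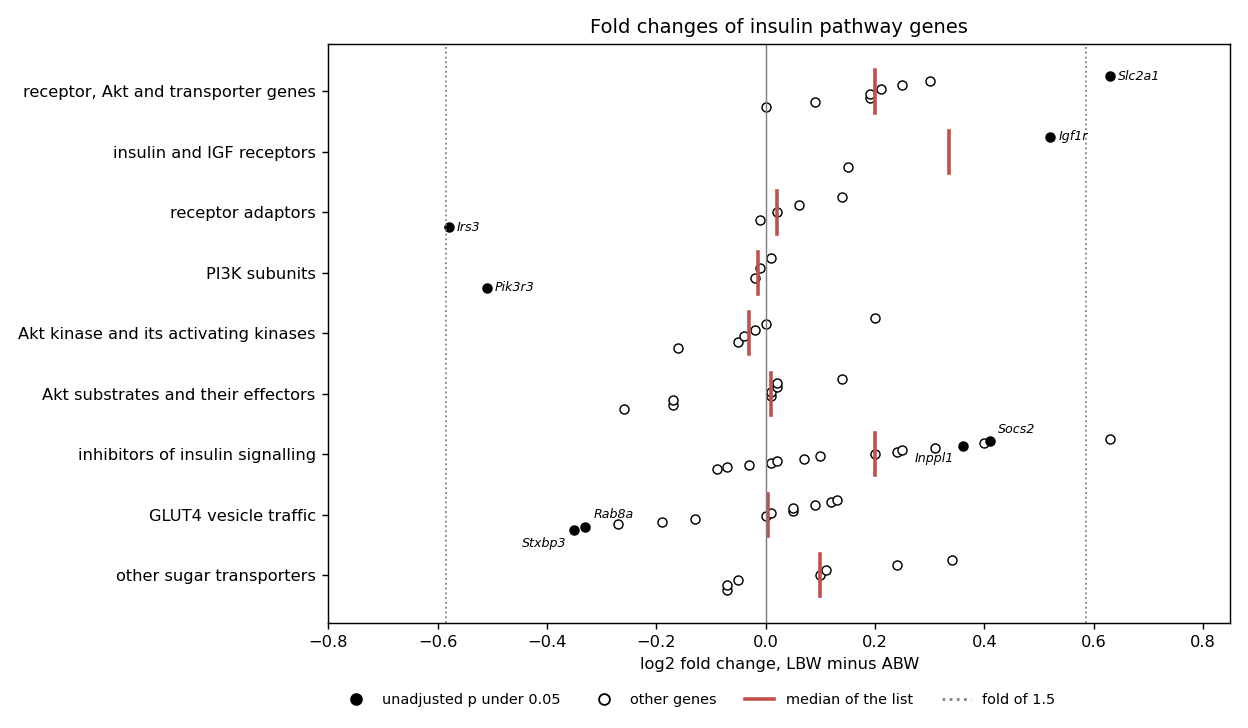
Each point is the log2 fold change of LBW over ABW pups (horizontal axis) for a gene, in rows by role, filled where the unadjusted p was under 0.05, with red lines at the list medians and dotted lines at a fold of 1.5. *Slc2a1* (0.63) is the only filled point beyond the dotted lines, and *Igf1r* (0.52), *Irs3* (-0.58) and *Pik3r3* (-0.51) come next to them.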

How the data were processed

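Total RNA of the 6 pups was labelled with Cy3 and hybridized to a NimbleGen rat array that carries 5 probes for each of 26419 transcripts. The authors deposited normalized log2 values, 1 column per pup, from their own R and Bioconductor code, and the submitters' processing notes name RMA. Neither background nor detection calls were used here, so how far a dim signal lies above background is unknown. Rows were named through the RefSeq table of GRCr8 (9747 rows, 36.9%), and rows of a symbol were averaged, which left 26299 genes. Listed genes without a match can still be on the array. *Runx2*, a listed bone marker unmatched here, is among the genes that the paper gives as upregulated in LBW pups. Each gene was tested 2-sided for LBW against ABW with limma 3.58.1 (R 4.3.3), with Benjamini-Hochberg adjustment over all genes, after a check on simulated data. Precision is limited by the 3 arrays per group. The labels call the pups biological replicates. The genes, lists and tests were chosen with earlier results of these data known. Named were the 8 genes, at most 4 genes of a list with the largest differences beside those called, and the 4 most like each transporter. Macrophage markers (8 with a row, 0 called) were listed as well. Alternatives changed the scaling, the filter on dim rows, the variance model, the weights, the test, the averaging of rows, the fold criterion, the block and the pups included.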

Additional observations from a re-analysis of the deposited data

How the results depend on the processing

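Of the 11 alternatives other than leaving out a pup, only quantile normalization, median centring and array weights could change a fold change of the 8 genes. The others altered the test, the block, the filter, the threshold or the averaging, and each gene had 1 row. Direction was therefore fixed in them. Under all 11, 85 of the 88 values of the 8 genes kept their direction and their side of the threshold. The exceptions were *Slc2a1*, no longer called with array weights (0.54) or at a fold change of at least 2 (0.63), and *Akt2*, which turned to -0.01 with median centring. The number of the 8 genes called, 1, was therefore 0 in the first and second of these settings. With a pup left out it was 0 to 1. The log2 fold change then ranged from 0.50 to 0.81 for *Slc2a1*, 0.005 to 0.66 for *Slc2a4*, -0.001 to 0.33 for *Insr*, 0.16 to 0.43 for *Pik3r1*, -0.048 to 0.046 for *Akt2*, and -0.61 to 0.12 for *Slc2a4* minus *Slc2a1*. Of the listed pathway genes 0 to 2 were called with a pup left out, and 1 with median centring (*Irs3*), without the dimmest 25% (*Socs3*) and with array weights (*Irs3*). Over all genes, 1124 were called, 584 by Student's t-test and 335 at a fold change of at least 2, and 798 (without LBW 1) to 1546 (without LBW 2) with a pup left out. After adjustment 0 to 125 passed, the latter without LBW 2. The causes were not tested, except that a higher fold criterion can only remove calls. Pups that carry the same replicate number were only weakly alike (correlations of their deviations 0.087, 0.103 and 0.055). Still, 6 of 6 pups correlated best with their own number. The counts for LBW and ABW pups rest on the same correlations and are not separate observations, so these values do not settle whether the numbers pair the pups. With the replicate numbers as a block 1230 genes were called, *Slc2a1* among them as the single one of the 8 (log2 0.63), and 0 after adjustment.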

Other observations

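Among the 9626 other named genes, those closest to *Slc2a1* over the 6 pups, by the root mean square difference of their centred log2 signals, were *Lgals2* (0.0856), *Rasgrp1* (0.136), *Scn3b* (0.140) and *Or5aq1* (0.142). *Lgals2*, a galectin, was at 7.76, 7.65 and 7.84 in LBW and at 6.89, 7.57 and 7.18 in ABW pups, with ABW 2 nearest the LBW pups as in *Slc2a1*. *Scn3b*, a sodium channel beta subunit, was at 11.61, 11.54 and 11.80 in LBW and at 11.02, 11.18 and 10.96 in ABW pups. *Or5aq1*, an olfactory receptor, was dim in all pups (5.14 to 5.40 in ABW and 5.70 to 6.0 in LBW pups).

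Closest to *Slc2a4* were *Scn4b* (0.0796), *Cdkn2aipnl* (0.111), *Rundc3a* (0.114) and *Clic5* (0.123). *Scn4b*, another sodium channel beta subunit, was at 9.93, 9.59 and 8.72 in LBW 1, 2 and 3 and at 9.07, 9.31 and 8.62 in ABW pups. *Clic5* was at 10.71, 10.28 and 9.62 in LBW and at 9.69, 10.19 and 9.56 in ABW pups. All 4 were lowest of the LBW pups in LBW 3. Over so few pups such likeness is a description.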
